A study of Macaca mulatta with 24 samples.

Results

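Inwardly rectifying potassium channels pass potassium ions more readily into a cell than out of it and hold neurons and glia near the potassium equilibrium potential. The genes examined were the 8 members KCNJ3, KCNJ6, KCNJ9, KCNJ2, KCNJ4, KCNJ10, KCNJ16 and KCNJ11, found by symbol among 17208 gene rows, and all 8 were listed. KCNJ3, KCNJ6 and KCNJ9 encode the GIRK subunits (GIRK1, GIRK2 and GIRK3), whose channels are opened by the beta-gamma dimers that inhibitory G protein-coupled receptors release. GIRK channels are also known as direct targets of ethanol. KCNJ2 and KCNJ4 encode Kir2 subunits, which set the hyperpolarized resting potential of medium spiny neurons, the projection neurons of the striatum. KCNJ10 and KCNJ16 encode subunits that can form channels together, and KCNJ10 is best known for potassium uptake by astrocytes. KCNJ11 encodes the pore of the ATP-sensitive potassium channel, which couples membrane potential to the energy state of the cell.

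The samples were dissections of the nucleus accumbens (NAcc) core, a ventral striatal region, from 24 adult male rhesus macaques, 8 controls, 8 LD* animals (labelled LD) and 8 HD* animals, of which 4 were labelled HD and 4 VHD. Drinkers had been induced to drink 4% (w/v) ethanol and then had access to ethanol and water for 22 h a day over 12 months, and tissue was collected without imposed abstinence. Controls were kept under the same schedule with water in both spouts and received a 10% maltose dextrin solution to match calories, so every group shared the induction procedure and the daily sessions. Daily ethanol intake ran from 0.47 to 2.07 g/kg in LD*, from 2.74 to 3.09 g/kg in HD and from 3.09 to 3.78 g/kg in VHD animals. Ages were not used here. Each animal gave a single value per gene, in TPM (a share of the total RNA scaled for gene length and then to a fixed sum), and how many reads lie behind each is unknown. The animals came from 4 cohorts, with 2 LD* animals in cohort 4, 3 controls and 4 HD* animals in cohort 5, 2 controls, 3 LD* and 4 HD* animals in cohort 7a, and 3 controls and 3 LD* animals in cohort 7b.

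The dissections differed in the levels of cell type markers. All 9 markers of medium spiny neurons were present, and their summed level ran from 765 to 11852 TPM. Control 6 held the lowest sum, and its medium spiny neuron score (the mean over the list of log2(TPM + 1), centred on the 24 animals) was −3.21 against −1.04 or more in every other animal. SLC17A7, a vesicular glutamate transporter of cortical excitatory neurons, reached 100 TPM or more in 6 animals (LD 2, LD 4, LD 6, control 2, control 7 and HD 4). The dopamine neuron list summed to between 1.29 and 10.7 TPM. In such bulk tissue fewer cells of a type and less RNA per cell cannot be told apart.

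The channel genes spanned a wide range of levels in the NAcc core. On the TPM scale, which is per length, KCNJ4 was the highest member at 169 ± 71.0 (mean ± SD over 24 animals), followed by KCNJ10 at 107 ± 29.1, KCNJ9 at 68.9 ± 17.7, KCNJ11 at 18.0 ± 4.47, KCNJ2 at 10.1 ± 2.81, KCNJ3 at 5.89 ± 5.03, KCNJ16 at 2.26 ± 2.80 and KCNJ6 at 0.865 ± 0.662. KCNJ9 exceeded KCNJ11, and KCNJ11 exceeded KCNJ2, in 24 of 24 animals. The other neighbours in this order changed places in some animals. KCNJ4 exceeded KCNJ10 in 17, KCNJ10 exceeded KCNJ9 in 21, KCNJ2 exceeded KCNJ3 in 20, KCNJ3 exceeded KCNJ16 in 21 and KCNJ16 exceeded KCNJ6 in 20 of 24 animals. The spread between animals was narrowest for KCNJ11, KCNJ9, KCNJ10 and KCNJ2, with coefficients of variation of 24.8%, 25.7%, 27.1% and 27.8%. It was widest for KCNJ16 at 124%, with a highest value 21.3 times the lowest, and KCNJ3 at 85.4%, with a highest value 29.3 times the lowest.

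**Figure D1:**
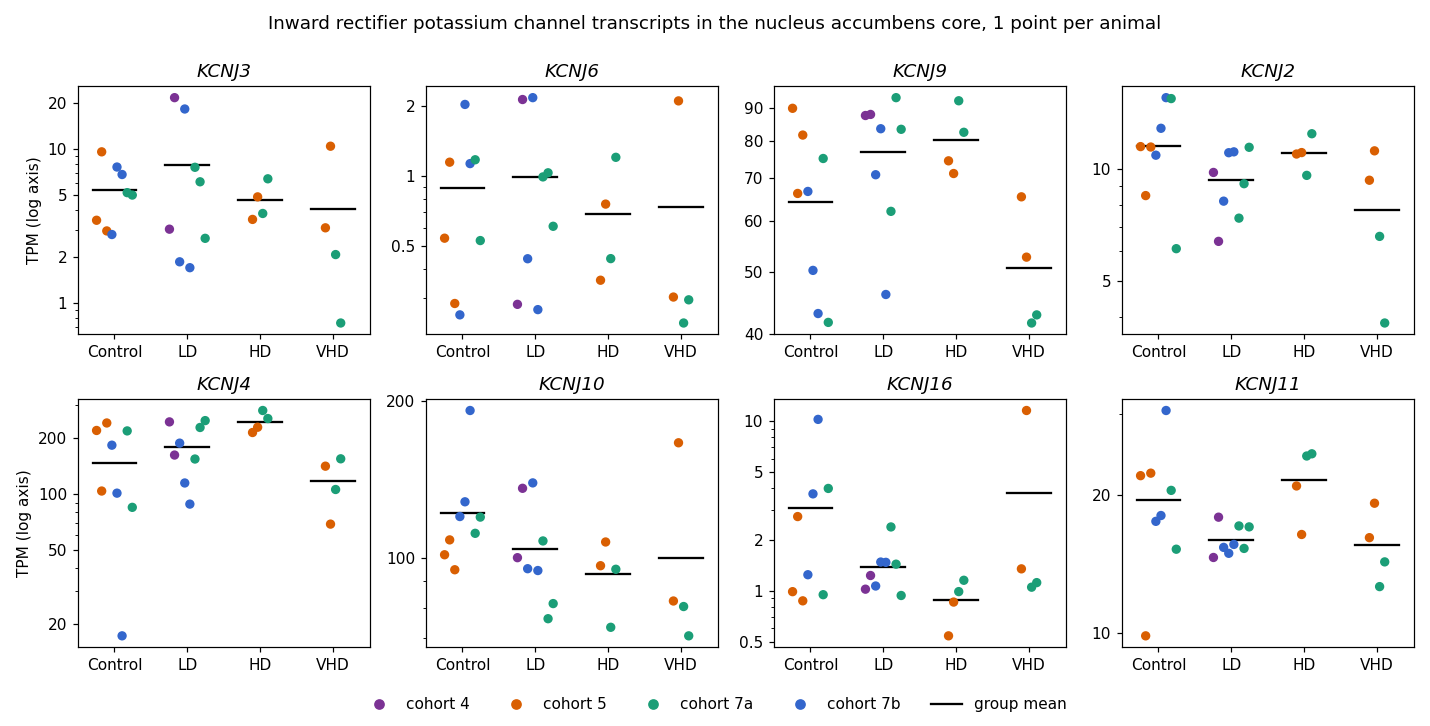
TPM of the 8 channel genes in each animal on log axes, by label (Control and LD, 8 animals each, HD and VHD, 4 each), with points coloured by cohort and a bar at the group mean. The 4 VHD animals lie below the 4 HD animals for KCNJ4 and KCNJ9, and single animals stand far above the rest for KCNJ16 and below for KCNJ4.

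The GIRK transcripts were mostly KCNJ9. GIRK3, its product, joins other GIRK subunits and affects their trafficking, whereas GIRK1 reaches the membrane only with a partner and GIRK2 can form channels alone. KCNJ9 made up 91.3 ± 5.94% of the summed TPM of the 3 genes (mean ± SD, 24 animals, 78.7% to 97.7%), KCNJ3 7.57 ± 5.19% and KCNJ6 1.15 ± 0.876%. The KCNJ9 share averaged 90.3 ± 5.29% in controls, 90.7 ± 7.48% in LD* animals and 92.9 ± 5.24% in the HD* group (n = 8 each). KCNJ9 itself ranged from 41.7 to 90.0 TPM in controls (median 66.5), from 46.1 to 93.5 in LD* (median 83.6) and from 41.6 to 92.5 in HD* animals (median 68.4), so the 3 groups overlapped over nearly their whole range.

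KCNJ3 was low in most animals and high in a few. It ranged from 2.78 to 9.61 TPM in controls (median 5.12), from 1.69 to 21.6 in LD* (median 4.57) and from 0.739 to 10.5 in HD* animals (median 3.65). The 2 highest values, 21.6 TPM in LD 2 and 18.3 TPM in LD 4, came from animals with SLC17A7 at 212 and 722 TPM. KCNJ6 ranged from 0.253 to 2.04 TPM in controls, from 0.266 to 2.18 in LD* and from 0.233 to 2.11 in HD* animals. Its mean was below 1 TPM, so that it was left out of the fit across genes, which held the other 7 members. KCNJ5, the remaining GIRK gene, averaged 0.172 ± 0.233 TPM (24 animals).

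Both Kir2 members were above the filter of 1 TPM. KCNJ4 ranged from 17.3 to 242 TPM in controls (median 144), from 88.5 to 249 in LD* (median 175) and from 69.0 to 282 in HD* animals (median 185). Its lowest value was that of control 6, and the next lowest control stood at 85.0 TPM. KCNJ2 ranged from 6.11 to 15.6 TPM in controls (median 11.5), from 6.39 to 11.5 in LD* (median 9.48) and from 3.85 to 12.5 in HD* animals (median 10.3). KCNJ12 and KCNJ14, 2 further Kir2 genes, averaged 4.75 ± 1.03 and 3.95 ± 0.796 TPM.

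KCNJ10 ranged from 94.8 to 192 TPM in controls (median 116), from 76.3 to 139 in LD* (median 97.6) and from 70.7 to 166 in HD* animals (median 88.8). KCNJ16 was near 1 TPM in most animals and ranged from 0.871 to 10.2 TPM in controls, from 0.936 to 2.37 in LD* and from 0.542 to 11.5 in HD* animals. Control 6 and VHD 2 held the 2 highest values of both genes, 192 and 166 TPM for KCNJ10 and 10.2 and 11.5 TPM for KCNJ16. KCNJ11 ranged from 9.86 to 30.6 TPM in controls, from 14.6 to 17.9 in LD* and from 12.6 to 24.6 in HD* animals, and its highest value was again that of control 6. ABCC8, the regulatory subunit that joins KCNJ11 in neurons, averaged 10.3 ± 2.74 TPM, and ABCC9, the other regulatory subunit, 0.659 ± 0.307 TPM. In the rhesus annotation of RefSeq, whose build is not that of the values, KCNJ9 lies next to KCNJ10, KCNJ2 next to KCNJ16 and KCNJ11 next to ABCC8.

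HD* animals and controls were compared first, since this contrast was the study's main question. None of the 7 members tested differed at an adjusted p under 0.05, as for all 13637 genes whose mean reached 1 TPM (limma on log2(TPM + 1), 0% called, smallest adjusted p = 0.706). The study itself tested read counts with DESeq2, called genes in this contrast and named KCNJ9 among downregulated potassium channels. The test on TPM used here differs from that one. At an unadjusted p under 0.05, 775 genes were called, 5.68% of those tested, and 1 of them, KCNJ10, was a member. KCNJ10 averaged 96.5 ± 30.8 TPM in HD* animals and 122 ± 30.3 TPM in controls (mean ± SD, n = 8 each). The difference was −0.35 on the log2 scale (SE 0.16, limma adjusted p = 0.706, exact permutation p = 0.0650). The groups overlapped, with VHD 2 above every control but control 6. Without control 6 the KCNJ10 difference was −0.26, and its unadjusted p was no longer under 0.05. The same held after TMM rescaling, in which each animal is scaled by a trimmed mean of its log ratios (−0.22), with cohort as a covariate (−0.22), and without control 4, 5 or 8, HD 3, or VHD 1, 3 or 4 (−0.35 to −0.30). In fits chosen after seeing the data it was −0.24 with the medium spiny and cortical marker scores as covariates and −0.27 without control 6 and the animals of high SLC17A7, again with no unadjusted p under 0.05. Within cohort 7a the mean was 79.9 TPM in 4 HD* animals and 116 TPM in 2 controls (exact permutation p = 0.0667, the smallest that 15 assignments allow). In cohort 5 the HD* mean of 113 TPM was above the control mean of 101.5 TPM (difference 0.11 on the log2 scale, exact permutation p = 0.800). The interaction of the HD* difference with cohort was −0.64 for KCNJ10 (SE 0.31, limma adjusted p = 1.00), and 294 of the 13637 genes (2.16%) reached an unadjusted p under 0.05 for it, 0 members among them, with 0% called after adjustment. All 8 astrocyte markers were also lower in HD* animals, with a median of −0.20 and 0 called. So were all 6 oligodendrocyte markers (median −0.34, 0 called), and 22.2% of all 13637 genes were higher. The part of astrocyte RNA in the KCNJ10 value was not tested.

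The other members differed by less than the spread between animals. The difference of HD* animals from controls on the log2 scale was 0.50 for KCNJ4 (95% confidence interval −0.33 to 1.34), −0.42 for KCNJ16 (−1.17 to 0.33), −0.37 for KCNJ3 (−1.22 to 0.49), −0.29 for KCNJ2 (−0.69 to 0.11), −0.043 for KCNJ11 (−0.38 to 0.29) and 0.022 for KCNJ9 (−0.36 to 0.41). These intervals hold changes of either sign, and the members' median of −0.29 stood beside a median of −0.12 over all genes. All 9 medium spiny neuron markers were higher in HD* animals than in controls, with a median of 0.47 and 0 called. Without control 6 the KCNJ4 difference was 0.12 and the KCNJ16 difference −0.17. Other single animals moved values the other way. Without VHD 2 the KCNJ16 difference was −0.75 (limma adjusted p = 0.249), and without control 8 that of KCNJ2 was −0.40 (limma adjusted p = 0.474). Both then had an unadjusted p under 0.05. KCNJ6, fitted with all 17208 genes, differed by −0.15 (SE 0.23, limma adjusted p = 0.816).

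LD* animals were compared with the same controls, so this comparison shares its control values with the one above. None of the 7 members was called (0% of 13637 genes, smallest limma adjusted p = 1.00), and 387 genes (2.84%), 0 members among them, reached an unadjusted p under 0.05. KCNJ9 averaged 77.0 ± 16.1 TPM in LD* animals and 64.4 ± 17.9 TPM in controls, a difference of 0.27 on the log2 scale (SE 0.19, limma adjusted p = 1.00, exact permutation p = 0.170). After TMM rescaling the KCNJ9 difference was 0.32 and reached an unadjusted p under 0.05 (limma adjusted p = 0.988, 382 genes at that threshold). KCNJ4 was higher by 0.53 (SE 0.40) and KCNJ16 lower, at −0.52 (SE 0.36), and without control 6 these became 0.15 and −0.27. The remaining differences were −0.26 for KCNJ2, −0.23 for KCNJ10, −0.22 for KCNJ11 and 0.094 for KCNJ3. Without control 2 the KCNJ11 difference was −0.34 and had an unadjusted p under 0.05, but it was not called. KCNJ11 was less variable in LD* animals, with an SD of 1.20 TPM against 6.04 in controls and 4.47 in HD* animals, and this difference in spread was not tested. Between HD* and LD* animals, 0 members and 0 of 13637 genes (0%) were called, 147 genes (1.08%) reached an unadjusted p under 0.05 without a member among them, and the members' differences ran from −0.46 for KCNJ3 to 0.17 for KCNJ11.

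**Figure D2:**
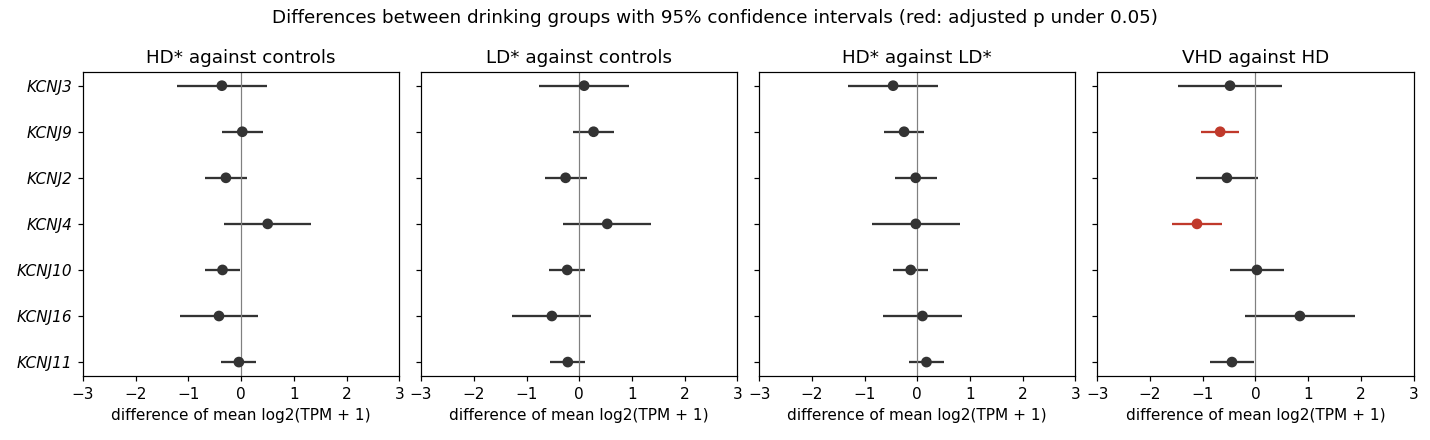
Differences of mean log2(TPM + 1) with 95% confidence intervals from limma for the 7 members tested in the 4 group comparisons, with red for an adjusted p under 0.05. The first 3 comparisons have 8 animals a group and share animals, the last has 4 against 4, and only KCNJ9 (−0.67) and KCNJ4 (−1.11) in VHD against HD are red.

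The balance between subunits was also compared within each animal, as the difference of log2(TPM + 1), in which the added 1 lowers the ratios of low genes such as KCNJ6. The 5 ratios (KCNJ3 to KCNJ6, KCNJ3 to KCNJ9, KCNJ6 to KCNJ9, KCNJ10 to KCNJ16 and KCNJ4 to KCNJ2) in 3 comparisons gave 15 tests, and 0 had an adjusted p under 0.05. The largest difference in favour of either group was that of KCNJ4 to KCNJ2, with a mean log2 ratio of 4.07 ± 0.751 in HD* animals and 3.27 ± 1.34 in controls (mean ± SD, n = 8 each, difference 0.79, exact permutation p = 0.159, adjusted p = 0.896). The corresponding difference for LD* animals was 0.79 (exact permutation p = 0.128, adjusted p = 0.896), and without control 6 the values were 0.34 for both groups. Without VHD 2 the difference of HD* animals from controls was 1.01 (exact permutation p = 0.0295), and without LD 5 that of LD* animals was 0.96 (exact permutation p = 0.0420), neither p adjusted over the 15 tests. The KCNJ3 to KCNJ9 ratio differed by −0.39 between HD* animals and controls (exact permutation p = 0.328, adjusted p = 0.896).

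Within the HD* group the study set VHD against HD animals, and here KCNJ4 and KCNJ9 were lower in VHD animals. KCNJ4 was 215, 229, 282 and 255 TPM in the 4 HD animals and 142, 69.0, 106 and 155 TPM in the 4 VHD animals. No VHD animal reached the lowest HD animal, and the difference was −1.11 on the log2 scale (SE 0.22, limma adjusted p = 0.0102, exact permutation p = 0.0286). KCNJ9 was 74.5, 71.2, 92.5 and 82.6 TPM in the HD animals and 65.5, 52.7, 41.6 and 42.9 TPM in the VHD animals. Again the groups did not overlap, and the difference was −0.67 (SE 0.17, limma adjusted p = 0.0237, exact permutation p = 0.0286). That exact p is the smallest that the 70 assignments of 4 against 4 animals allow. These were 2 of 7 members called, beside 1997 of 13637 genes (14.6%), of which 441 were higher and 1556 lower in VHD animals. Values of 3180 genes (23.3%) did not overlap between HD and VHD animals. The KCNJ4 difference was −1.16 in cohort 5 and −1.06 in cohort 7a, with 2 animals of each label in each, and that of KCNJ9 was −0.31 and −1.03.

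Both calls were lost with another scaling, and that of KCNJ9 also with some animals left out. The median difference of all genes was −0.17, and TMM rescaling set it at 0.0049. With it the KCNJ4 difference was −0.90 (limma adjusted p = 0.0712) and that of KCNJ9 −0.47 (limma adjusted p = 0.0559), while 2596 genes were called, 1180 higher and 1416 lower. VHD 4 had the lowest TMM factor of all animals (−0.526 on the log2 scale). Without VHD 4 and without rescaling, the median of all genes was −0.070. KCNJ9 was also not called without HD 2, HD 3, HD 4 or VHD 3 (limma adjusted p = 0.0524, 0.0870, 0.0695 and 0.0902). The medium spiny neuron markers moved the same way, with 8 of 9 called lower and a median of −1.04, and their summed level was 9182 to 10780 TPM in HD and 3494 to 6217 TPM in VHD animals. All 8 astrocyte markers were higher in VHD animals, 1 of them called (median 0.33), and 3 of 6 microglia markers were called (median 0.52). With the medium spiny and cortical marker scores in the model, chosen after seeing the data, 0 of 13637 genes were called (limma, 1217 at an unadjusted p under 0.05, median −0.59), and the differences were 0.32 for KCNJ4 and −0.31 for KCNJ9. The medium spiny neuron score itself did not overlap between the labels, at 0.55 to 0.77 in HD and −0.72 to 0.042 in VHD animals. This fit therefore cannot tell the score and the label apart.

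The other 5 members tested were not called between VHD and HD animals, while 4457 genes (32.7%) and 3 members, KCNJ4, KCNJ9 and KCNJ11, reached an unadjusted p under 0.05. KCNJ11 was 20.9, 16.4, 24.3 and 24.6 TPM in HD and 16.2, 19.2, 12.6 and 14.3 TPM in VHD animals, so that a single VHD animal, VHD 2, lay above the lowest HD animal (difference −0.44, SE 0.19, limma adjusted p = 0.136, exact permutation p = 0.0571). KCNJ2 differed by −0.54, KCNJ3 by −0.48 and KCNJ10 by 0.029. KCNJ16 differed by 0.84 (SE 0.48, limma adjusted p = 0.243), and its VHD values were 1.34, 11.5, 1.05 and 1.12 TPM, with VHD 2 alone far above the HD animals at 0.542 to 1.15 TPM. VHD 2 also held the highest KCNJ3 value (10.5 TPM) and KCNJ6 value (2.11 TPM) of the 8 animals. VHD 4 held the lowest KCNJ2, KCNJ3 and KCNJ10 values of all 24 animals (3.85, 0.739 and 70.7 TPM). Without VHD 2 the count of genes called rose to 4651, and KCNJ3 (−0.99, limma adjusted p = 0.0213), KCNJ2 (−0.73, 0.0367) and KCNJ11 (−0.55, 0.0386) were called lower as well.

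Among the 16 drinkers, the slope of each member on daily ethanol intake was fitted with the drinking group in the model, since the intakes of LD* and HD* animals did not overlap. None of the 7 members and none of the 13637 genes (0%) was called (smallest limma adjusted p = 0.499), and 1107 genes (8.12%) but 0 members reached an unadjusted p under 0.05. KCNJ9 had a slope of −0.37 per g/kg on the log2 scale (95% confidence interval −0.80 to 0.056), KCNJ4 one of −0.49 (−1.18 to 0.19) and KCNJ3 one of −0.80 (−1.93 to 0.33). KCNJ16 had a slope of 0.39 (−0.42 to 1.19), and the slopes of KCNJ10, KCNJ11 and KCNJ2 were −0.19, −0.18 and 0.14. Without the drinking group in the model, the slope also holds the difference between LD* and HD* animals. The KCNJ9 slope was then −0.21 and had an unadjusted p under 0.05 (limma adjusted p = 0.512).

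**Figure D3:**
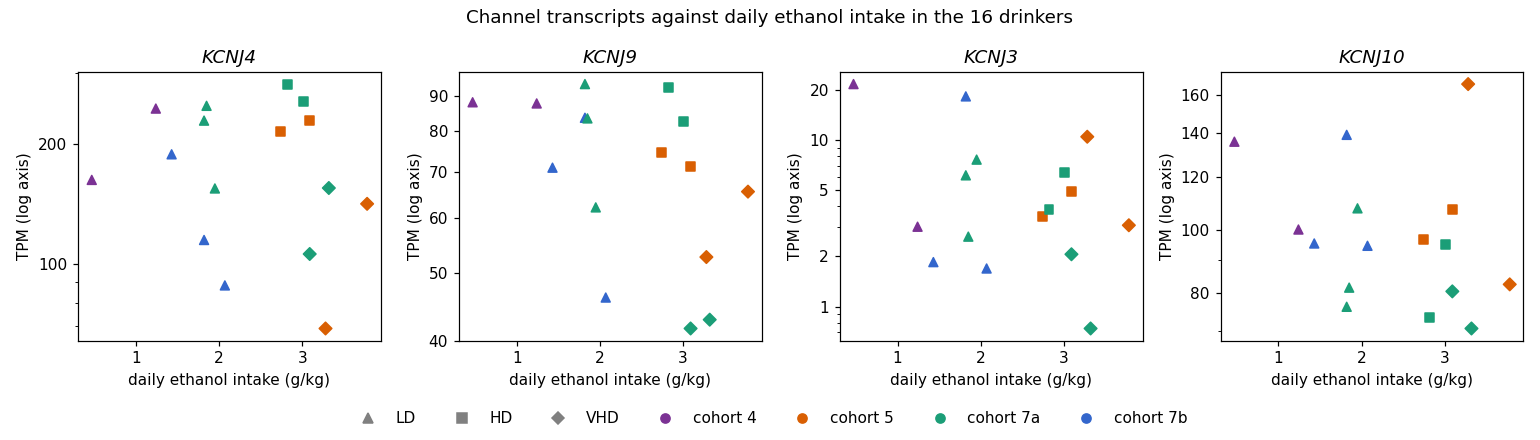
TPM of KCNJ4, KCNJ9, KCNJ3 and KCNJ10 (log axes) against daily ethanol intake in g/kg in the 16 drinkers, with marker shapes for LD, HD and VHD and colours for cohort. LD* animals lie between 0.47 and 2.07 g/kg and HD* animals between 2.74 and 3.78 g/kg, and at the upper end VHD values of KCNJ4 and KCNJ9 lie below HD values.

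Between animals, the channel genes divided by the cell type markers they followed. Scores of 8 marker lists were correlated with the 8 members over 24 animals, and 30 of 64 pairs passed at an adjusted p under 0.05 (100000 permutations, Benjamini-Hochberg), 21 with a positive and 9 with a negative r. All 24 points share the scale of TPM, in which a rise of one cell type's RNA lowers that of others. Spearman's rho passed in 23 pairs. By list, 6 of 8 pairs passed with the astrocyte score, 5 each with the oligodendrocyte and dopamine neuron scores, 4 each with the medium spiny neuron, microglia and interneuron scores, 2 with the cortical excitatory neuron score and 0 with the endothelial and mural score, with which 2 passed for rho.

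KCNJ4 followed the medium spiny neuron score closely. Pearson's r was 0.97 and rho 0.90 (permutation p = 1e-05 for each, the smallest possible, adjusted p = 0.00016), and r was 0.93 without the 2 animals farthest from the median score. Within cohorts 5, 7a and 7b r was 0.98, 0.98 and 0.98. The score accounted for 94.4% of the variance of KCNJ4 between animals, and the 3 drinking groups for 8.23%. KCNJ9 followed the same score less tightly (r = 0.69, rho = 0.67, adjusted permutation p = 0.00064 and 0.00432, r = 0.65 without the 2 animals), with 0.91, 0.92 and 0.57 within the cohorts.

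KCNJ10 followed the astrocyte score most closely of the 8 (r = 0.81, rho = 0.78, adjusted permutation p = 0.00016 and 0.00038, r = 0.73 without the 2 farthest animals). Within cohorts 5, 7a and 7b r was 0.68, 0.71 and 0.92. KCNJ16 had an r of 0.74 with the astrocyte score (rho = 0.73, adjusted permutation p = 0.00016 and 0.00213, 0.64 without the 2 animals, within cohorts 0.87, 0.75 and 0.86) and of −0.80 with the medium spiny neuron score (rho = −0.84, adjusted permutation p = 0.00064 and 0.00016, −0.64 without the 2 animals, within cohorts −0.90, −0.71 and −0.91). KCNJ10 had an r of −0.65 with the medium spiny neuron score (rho = −0.50, adjusted permutation p = 0.0032 and 0.0421, within cohorts −0.65, −0.35 and −0.86). Without the 2 animals its r was −0.44 and did not pass (adjusted permutation p = 0.0975). KCNJ10 and KCNJ16 thus had r of opposite sign with the astrocyte and medium spiny neuron scores.

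KCNJ3 and KCNJ6 had positive r with the cortical excitatory neuron score, 0.62 and 0.56 (rho = 0.48 and 0.51, adjusted permutation p = 0.00548 and 0.0145 for r). For rho the adjusted permutation p was 0.0529 for KCNJ3, which did not pass, and 0.0395 for KCNJ6. Neither relation passed without the 2 farthest animals, where r was 0.46 and 0.44 with an adjusted permutation p of 0.0907 and 0.0975. Within cohorts 5, 7a and 7b r was 0.54, 0.45 and 0.70 for KCNJ3 and 0.31, 0.65 and 0.56 for KCNJ6. KCNJ3 also passed with the astrocyte, dopamine neuron and interneuron scores (r = 0.56, 0.56 and 0.55). Their rho passed too (adjusted permutation p = 0.0262, 0.0100 and 0.0248). After TMM rescaling these r were 0.32, 0.44 and 0.35 and did not pass (adjusted permutation p = 0.214, 0.0649 and 0.166). The highest r of KCNJ6 was that with the dopamine neuron list (0.70, rho = 0.68, adjusted permutation p = 0.00165 and 0.00384, 0.72 without the 2 animals, within cohorts 0.95, 0.21 and 0.80), of which TH alone passed 1 TPM. KCNJ2 had its highest r, 0.59, with the oligodendrocyte score (rho = 0.60, adjusted permutation p = 0.0106 and 0.0117, 0.52 without the 2 animals, within cohorts 0.32, 0.52 and 0.87). KCNJ11 passed with 0 of the 8 lists.

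**Figure D4:**
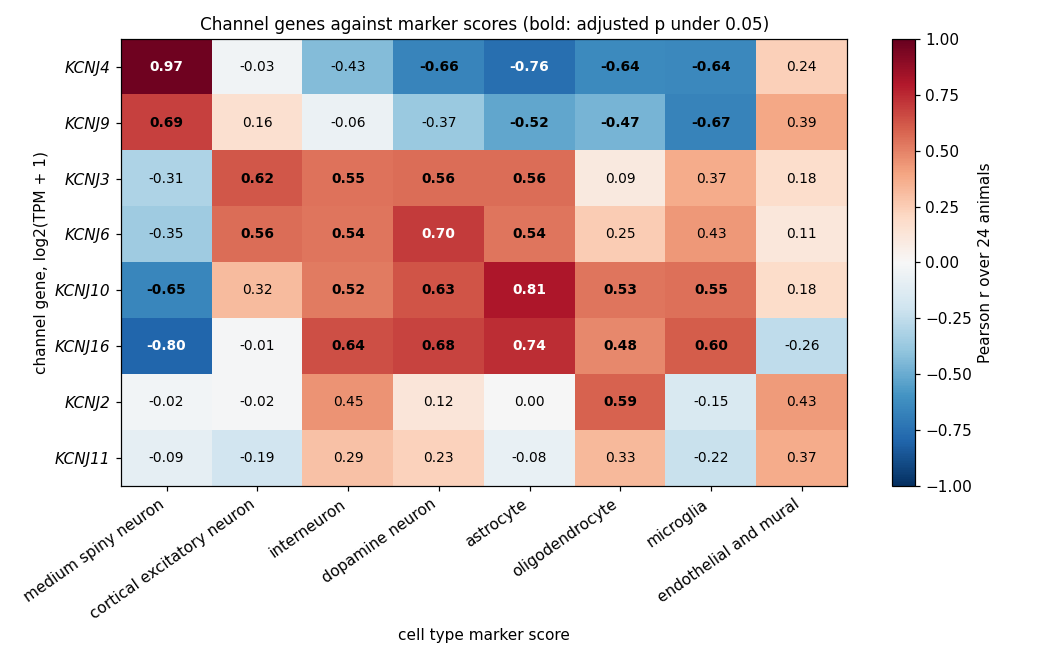
Pearson's r over 24 animals between each channel gene (rows, log2(TPM + 1)) and each of 8 cell type marker scores (columns), from −1 in blue to 1 in red, with bold type for an adjusted permutation p under 0.05. KCNJ4 and KCNJ9 have positive r with the medium spiny neuron score (0.97 and 0.69) and KCNJ10 and KCNJ16 negative r (−0.65 and −0.80).

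**Figure D5:**
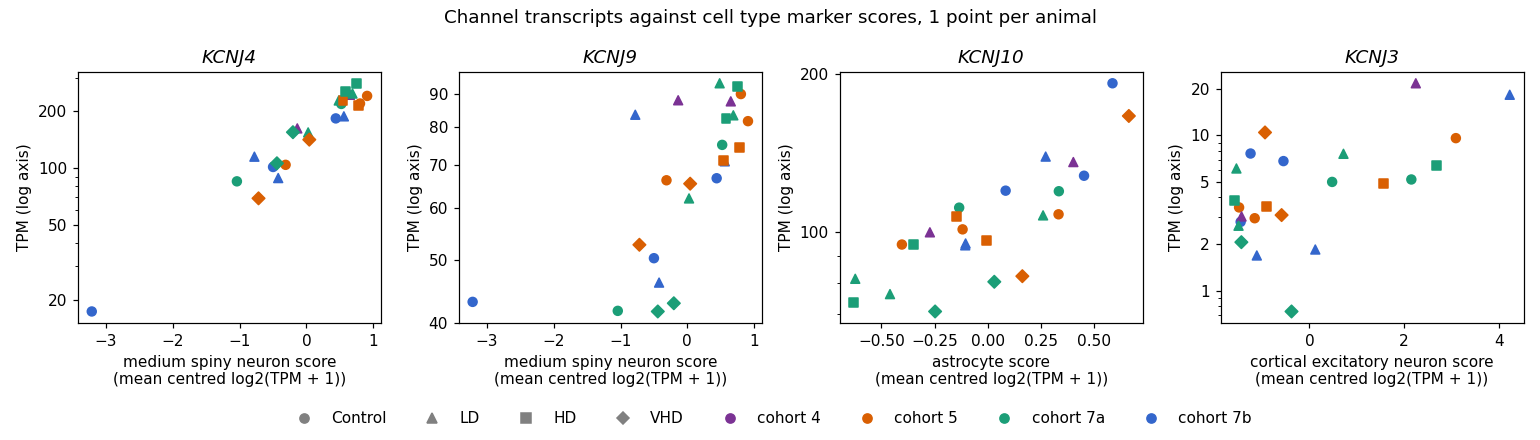
TPM (log axes) of KCNJ4 and KCNJ9 against the medium spiny neuron score, KCNJ10 against the astrocyte score and KCNJ3 against the cortical excitatory neuron score, 1 point per animal, with shapes for the labels and colours for the cohorts. Control 6 lies apart at a medium spiny neuron score of −3.21 with 17.3 TPM of KCNJ4.

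The members also moved with one another. Of 21 pairs of the 7 members tested, 7 passed at an adjusted p under 0.05 (permutation, 4 positive and 3 negative). KCNJ4 rose with KCNJ9 (r = 0.73, rho = 0.77, adjusted permutation p = 0.00021 and 0.00032, 0.74 without the 2 farthest animals, within cohorts 5, 7a and 7b 0.88, 0.92 and 0.70). KCNJ4 fell with KCNJ16 (r = −0.84, rho = −0.79, adjusted permutation p = 0.00021 and 0.00032, −0.71 without the 2 animals, within cohorts −0.93, −0.67 and −0.93). KCNJ10 rose with its partner KCNJ16 (r = 0.73, rho = 0.50, adjusted permutation p = 0.00112 and 0.0412, within cohorts 0.88, 0.64 and 0.84). Without the 2 farthest animals r was 0.42 and this pair did not pass (adjusted permutation p = 0.125). KCNJ2 rose with KCNJ11 (r = 0.57, rho = 0.67, adjusted permutation p = 0.0152 and 0.00252, 0.59 without the 2 animals, within cohorts 0.91, 0.69 and 0.80). KCNJ3 rose with KCNJ10 (r = 0.66, rho = 0.69, adjusted permutation p = 0.00155 and 0.00224, 0.61 without the 2 animals, within cohorts 0.81, 0.63 and 0.68). After TMM rescaling the last 2 pairs did not pass (r = 0.37 and 0.45, adjusted permutation p = 0.176 and 0.0866). The GIRK genes KCNJ3 and KCNJ9 did not pass (r = 0.24, rho = 0.18, adjusted permutation p = 0.410 and 0.510).

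For each member the 3 genes with the highest r over the 24 animals, among the 13637 genes, were named as a description. KCNJ4 was most like GABRD (r = 0.98), a subunit of extrasynaptic GABA receptors, KIAA1211L (0.98) and ADORA2A (0.97), the adenosine receptor of indirect-pathway medium spiny neurons. KCNJ9 was most like CDK5R1, DCLK1 and PIP4K2C (0.96 each), of which CDK5R1 activates the neuronal kinase CDK5. KCNJ3 was most like GRIN3A, CADPS2 and GABBR2 (0.93 each), and GABBR2 is a subunit of the GABA-B receptor, which opens GIRK channels. KCNJ6 was also most like GRIN3A (0.94), an NMDA receptor subunit, then ELAVL4 (0.91) and CAMK2D (0.90), and KCNJ3 stood at rank 5 (0.89). KCNJ10 was most like CTH (0.93), SS18 (0.93) and EPS8 (0.93), KCNJ16 like VAMP1 (0.94), GBX1 (0.93) and CCDC69 (0.91), KCNJ2 like FAM108B1 (0.94), FRMD4B (0.94) and RIF1 (0.93), and KCNJ11 like ICAM3 (0.90), LEMD2 (0.85) and TMEM189 (0.84).

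The genes around these channels were taken from lists of receptors, G proteins, regulators, lipid kinases and scaffolds, and between HD* animals and controls 0 of them were called. Their counts of direction stand beside 22.2% of all 13637 genes higher in HD* animals, with a median of −0.12 over all genes. Of 16 receptors known to open GIRK channels 15 were tested, 6 higher and 9 lower in HD* animals with a median of −0.029, and the smallest p belonged to ADRA2A (−0.43, SE 0.26), an alpha-2 adrenergic receptor, and CHRM2 (−0.27, SE 0.19), a muscarinic receptor. Of 19 G protein subunits 5 were higher and 14 lower (median −0.11), led by the inhibitory alpha subunit GNAI3 (−0.32, SE 0.13) and the gamma subunit GNG12 (−0.22, SE 0.14). Of 13 regulators 5 were higher and 8 lower (median −0.043), led by RGS6 (−0.47, SE 0.25) and RGS9 (0.36, SE 0.38), which speed G protein deactivation. All 5 kinases on the route to PIP2, the membrane lipid that these channels need, were lower (median −0.11), led by PIP5K1B (−0.56, SE 0.25) and PI4KB (−0.11, SE 0.12). Of 13 scaffold genes 3 were higher and 10 lower (median −0.10), led by LIN7B (0.18, SE 0.10) and DLG2 (−0.16, SE 0.096). Of the other Kir genes 3 of 7 were tested, and KCNJ8, which encodes a vascular pore of the ATP-sensitive channel, differed by −0.40 (SE 0.19) and KCNJ12 by −0.12 (SE 0.14), while ABCC8 differed by −0.16 (SE 0.18). The limma adjusted p of every gene named here was 0.706 or more.

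Between VHD and HD animals the same lists held many called genes, beside the 14.6% of all genes. Of the 15 receptors 10 were called, all lower, with a list median of −0.87. Of the 13 regulators 9 were called lower, with a median of −0.81. Of the 19 G protein subunits 3 were called lower (median 0.058), of the 13 scaffolds 2 (median −0.23), of the 5 kinases 1 (median −0.34), and of the 3 further Kir genes and ABCC8 0 were called. DRD2 and RGS9 belong both to these lists and to the medium spiny neuron list. Named after their values were seen, CHRM4, a muscarinic receptor of medium spiny neurons, differed by −1.27 (SE 0.18, limma adjusted p = 0.00363), RGS4 by −1.70 (SE 0.25, limma adjusted p = 0.00435) and GNAO1, the alpha subunit of the G protein Go, by −0.89 (SE 0.14, limma adjusted p = 0.00489). Levels of these receptor and regulator genes thus moved with KCNJ4, KCNJ9 and the medium spiny neuron markers in the same 8 animals. The part of cell type makeup in them was not tested, since the model with marker scores cannot tell it from the label.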

How the data were processed

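The authors sequenced polyA-selected RNA of the NAcc core from 24 animals, aligned reads to the MacaM assembly with STAR 2.5.2b and counted them on genes with HTSeq 0.6.1p1. The deposited values are TPM, made by the authors by a route not given in the sources used here, and the sum over genes lay between 999998 and 1000000 in each animal. The paper gives the number of reads and the share mapped only as averages over the samples. The read depth of each animal is therefore unknown and no counting error can be given. Strand and read pairing are described differently in the sources. If counting ignored strand, reads of overlapping genes cannot be told apart.

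Genes whose mean reached 1 TPM (13637 of 17208) were fitted as log2(TPM + 1), which understates changes of low genes, with limma 3.58.1 in R 4.3.3 (empirical Bayes with a trend, Benjamini-Hochberg over all genes, adjusted p 0.05). One model held the 3 drinking groups, a second the 8 HD* animals, another the intake slope of the 16 drinkers and the last the interaction with cohort in cohorts 5 and 7a. Exact permutation tests of single genes and ratios were two-sided, and correlations used 100000 permutations (Python 3.11.15, numpy 2.4.6, scipy 1.17.1, pandas 2.3.3, with figures in matplotlib 3.10.9). The limma fits were tested on simulated data. Named genes are the 8 members, the 2 genes of each list with the smallest p in HD* against controls and the 3 genes most like each member, and CHRM4, RGS4 and GNAO1 were added after their values were seen. Marker lists covered medium spiny neurons, astrocytes, oligodendrocytes, microglia, endothelial and mural cells, cortical excitatory neurons, dopamine neurons and interneurons. Members, lists and tests were chosen with earlier results of these data known. Alternatives were a pseudocount of 0.1, filters of 10 TPM and none, TMM rescaling (trimming 30% of M and 5% of A), cohort as a covariate, a slope without the drinking group, each animal left out, and 2 added after seeing the data.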

Additional observations from a re-analysis of the deposited data

Results flagged for a closer look

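Each gene's values were examined for an animal far from the rest of its group (Dixon's criterion at 95%) in 40 groups of 4 or 8 animals, and 8 groups held such an animal. Chance alone flags about 1 in 20 groups only where groups are independent and values normally distributed. Here the values were TPM without a log, HD* animals were counted again as HD or VHD, and the genes moved with one another. The count therefore cannot be set against that rate. VHD 2 stood above the other VHD animals for KCNJ6 (2.11 TPM against 0.233 to 0.302), for KCNJ10 (166.4 TPM against 70.7 to 82.5) and for KCNJ16 (11.52 TPM against 1.05 to 1.34), and for KCNJ10 and KCNJ16 it also stood above the other 7 HD* animals (70.7 to 107 and 0.542 to 1.34 TPM). Control 6 stood above the other controls for KCNJ10 (192.0 TPM against 94.8 to 128) and KCNJ16 (10.21 TPM against 0.871 to 4.00). LD 6 stood above the other LD* animals for KCNJ16 (2.373 TPM against 0.936 to 1.47). The medium spiny neuron score was −0.72 in VHD 2, the lowest of the HD* animals, and −3.21 in control 6, the lowest of all, and the astrocyte score was 0.67 in VHD 2 and 0.59 in control 6.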

How the results depend on the processing

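No paired analysis was possible because the labels give no replicate numbers that animals of different groups share. No gene passed the adjusted threshold in HD* against controls, LD* against controls, HD* against LD* or the intake slope under any alternative tried. TMM rescaling moved the median of all genes in HD* against controls from −0.12 to 3.9e-05, and turned the genes at an unadjusted p under 0.05 from 54 higher and 721 lower to 304 higher and 198 lower. Without VHD 4 and without rescaling, that median was −0.057. The count of 1997 genes in VHD against HD ran from 476 (without VHD 3) to 4651 (without VHD 2) with an animal left out, also dropping by over 1.5 times without HD 1 (1094), HD 2 (681), HD 3 (607) and HD 4 (723), and was 0 with marker scores as covariates, where KCNJ10 (−1.21), KCNJ16 (−1.97) and KCNJ4 (0.32) changed sign. KCNJ4 stayed called in all 8 of these leave-one-out fits (−1.26 to −0.88). The count of 30 marker pairs was 19 without the 2 farthest animals. The causes were not tested.

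The other members whose sign changed had not been called. In HD* against controls, KCNJ11 was 0.084 after TMM and 0.00088 with cohort as a covariate, and KCNJ9 was −0.10 with cohort, −0.12 with marker scores and −0.064 without the animals of high SLC17A7 and control 6, which also gave −0.42 for KCNJ3 in LD* against controls and 0.21 for KCNJ3 and 0.060 for KCNJ10 in HD* against LD*. In HD* against LD*, KCNJ2 was 0.042 and KCNJ4 0.060 after TMM, and KCNJ10 0.064 with cohort. The intake slope was −0.10 for KCNJ2 with cohort and 0.047 for KCNJ11 without the drinking group. With a pseudocount of 0.1 the KCNJ3 to KCNJ6 ratio (LD* against controls) was −0.024 and the KCNJ6 to KCNJ9 ratio (HD* against LD*) −0.17, and within cohorts 5 and 7a the KCNJ10 to KCNJ16 ratio (HD* against controls) was −0.086.

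With each animal left out, HD* against controls ran from −0.059 to 0.11 for KCNJ9 and −0.17 to 0.054 for KCNJ11, and LD* against controls from −0.17 to 0.27 for KCNJ3. HD* against LD* ran from −0.16 to 0.15 for KCNJ4, −0.23 to 0.20 for KCNJ16 and −0.096 to 0.12 for KCNJ2, and VHD against HD from −0.24 to 0.16 for KCNJ10. The ratio ranges were −0.11 to 0.16 for KCNJ3 to KCNJ6 (LD* against controls), −0.43 to 0.018 for KCNJ3 to KCNJ9, −0.12 to 0.15 for KCNJ6 to KCNJ9 and −0.17 to 0.22 for KCNJ4 to KCNJ2 (HD* against LD*), and −0.084 to 0.28 for KCNJ10 to KCNJ16 (HD* against controls).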
